A study of Rattus norvegicus with 15 samples.

Results

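The miR-200 family is a set of 5 related microRNAs (miRNAs), named rno-miR-200c, rno-miR-141, rno-miR-200b, rno-miR-200a and rno-miR-429 on the array and below without the species prefix. They were found by these exact names among the 350 rat miRNAs of the array, as 5 of 350 miRNAs and 10 of 938 probes, with 2 probes each. The arrays held total RNA from hearts of male Sprague-Dawley rats. The GF group (glucose fluctuation) had diabetes from a single intravenous injection of streptozotocin at 60 mg/kg, then 24 h without food and an intraperitoneal injection of insulin at 0.5 IU/kg. The DM group had the same streptozotocin diabetes without the fast and the insulin, and the labels put plasma glucose above 300 mg/dL before rats were assigned to either diabetic group. The Veh group was given vehicle. Streptozotocin kills the insulin-producing cells of the pancreas. Fasting and insulin were given together, so their parts in GF cannot be told apart, and the labels give no age and leave unsaid whether the 5 arrays of a group came from 5 animals.

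miR-200 family members are best known from epithelial cells, where they repress the transcription factors ZEB1 and ZEB2 and so keep up E-cadherin and cell contacts. Loss of the family accompanies the change of epithelial cells into mesenchymal ones, and heart muscle cells are not a classical source of these miRNAs. A miRNA finds its target messages mainly through its seed, bases 2 to 8 from the 5′ end.

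The family has 2 genomic clusters and 2 seeds, and each cluster holds both seeds. In RefSeq (build GRCr8), Mir200c and Mir141 lie 346 bases apart on chromosome 4, and Mir200b, Mir200a and Mir429 lie within 1908 bases on chromosome 5, all on the minus strand. The mature forms of the chromosome 4 cluster carry the changes described below, at chr4:159209969-159209989 for miR-200c and chr4:159209540-159209561 for miR-141. They are written 5′ to 3′ with the seed in capitals.
miR-200c: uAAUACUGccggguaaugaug
miR-141: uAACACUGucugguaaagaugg
The seeds differ at 1 of 7 bases. For the chromosome 5 members the hairpins are shown, with the same 7-letter runs in capitals, to show which seed each shares. They lie at chr5:171931495-171931589 (Mir200b), chr5:171930717-171930805 (Mir200a) and chr5:171929682-171929766 (Mir429).
miR-200b hairpin: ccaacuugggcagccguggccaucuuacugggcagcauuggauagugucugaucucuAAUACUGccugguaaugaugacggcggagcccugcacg
miR-200a hairpin: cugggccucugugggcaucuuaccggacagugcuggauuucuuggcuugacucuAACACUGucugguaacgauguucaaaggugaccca
miR-429 hairpin: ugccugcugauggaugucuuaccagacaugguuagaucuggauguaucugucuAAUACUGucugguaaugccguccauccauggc
The run AAUACUG, searched on the hairpin strand, was in 4 of 419 rat hairpins of the table (0.955%), of which 3 were miR-200c, miR-200b and miR-429. The run AACACUG was likewise in 4 of 419, of which 2 were miR-141 and miR-200a. A same-seed pair across the clusters is therefore miR-200c with miR-200b, and miR-141 with miR-200a.

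The study had 15 arrays, 5 per group, on 2 slides that each held all 3 groups. The scanner software detected 166 to 190 miRNAs on an array, and 165 entered the tests. Arrays of 1 group whose whole profiles differed by less than the scanner software's stated error were averaged and counted once, which joined GF 1 with 5, GF 2 with 4, DM 2 with 4, DM 3 with 5 and Veh 1 with 3. This left 10 distinct samples, n = 3 GF, 3 DM and 4 Veh. The profile of Veh 5 differed more from the other Veh arrays (reduced chi-square of at least 3.25) than from DM 1 (1.15). DM 3 and DM 5 differed from DM 1, 2 and 4 by 4.87 to 5.59, against at most 1.18 among arrays of DM on the same row of the slide.

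The place on the slide moved with the groups. Per the file headers, a slide has 2 rows of 4 arrays, and all 5 GF arrays were in row 2 while all 5 Veh arrays were in row 1. DM 3 and 5 were in row 2 and DM 1, 2 and 4 in row 1. In a comparison of GF with Veh, group and row therefore cannot be told apart except through DM.

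miR-200c was well above background on all 15 arrays. Its scaled signal in GF was 279 (GF 1 and 5), 216 (GF 6) and 209 (GF 2 and 4). In DM it was 277 (DM 3 and 5), 77.5 (DM 1) and 64.4 (DM 2 and 4). In Veh it was 80.9 (Veh 5), 32.6 (Veh 1 and 3), 30.7 (Veh 2) and 28.6 (Veh 4). The GF samples all lay above the Veh samples, and DM reached from inside the range of Veh to inside the range of GF.

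miR-141, the cluster partner of miR-200c, gave the same picture. Its scaled signal in GF was 149.6, 113 and 112. The DM values were 127 in DM 3 and 5, 37.0 in DM 1 and 27.2 in DM 2 and 4. Veh 5 had 38.1, and the other Veh samples had 17.8, 13.1 and 12.4, below the floor of 19.7 that was used for tests. miR-141 was well above background on 5 of 5 GF arrays, 5 of 5 DM arrays and 2 of 5 Veh arrays, so most of its Veh level is a bound set by the background.

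**Figure D1:**
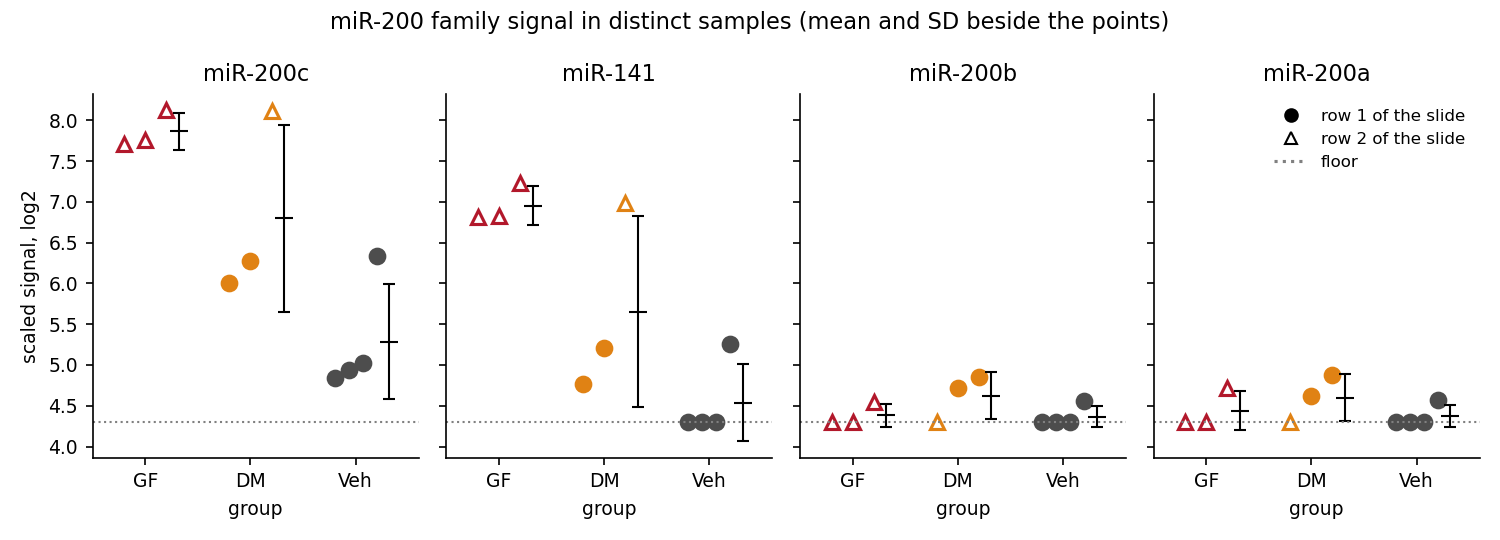
Scaled signal (log2, vertical axis) of the 4 members above background on any array, in GF, DM and Veh; each point is 1 distinct sample (n = 3, 3 and 4), filled circles lie in row 1 of the slide and open triangles in row 2, and bars give the mean and SD. For miR-200c and miR-141 the open triangles sit together at the top in GF and DM alike, while miR-200b and miR-200a stay near the dotted floor.

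miR-200c and miR-141 were higher on GF arrays than on Veh arrays, which also lay in different rows of the slide. miR-200c averaged 7.86 ± 0.23 in GF (n = 3) and 5.28 ± 0.71 in Veh (n = 4) on the log2 scale (mean ± SD), a difference of 2.58 (SE 0.51; 5.97-fold, 95% interval 2.70 to 13.2; limma, adjusted p = 0.0194). miR-141 averaged 6.95 ± 0.23 in GF and 4.54 ± 0.47 in Veh, a difference of 2.41 (SE 0.47, adjusted p = 0.0194). With 3 of 4 Veh samples of miR-141 at the floor, its size depends on the floor, and it was 2.77 with a floor of 1 and 2.97 with the total gene signal. They were 2 of 13 miRNAs past the threshold of 0.05 among 165 tested (7.88%), and 2 of the 5 that were higher (3.03%); without scaling between arrays, 16 of 18 called miRNAs were higher. In 12 of 165 miRNAs (7.27%), these 2 included, all GF samples lay above all Veh samples, and in 32 (19.4%) all lay below. Within slides 1 and 2 the difference was 3.03 and 2.40 for miR-200c and 2.74 and 2.32 for miR-141. On both slides GF lay in row 2 and Veh in row 1, so these values cannot tell group from row. An array cannot tell more of these miRNAs per cell from more cells that contain them.

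The call did not hold with the row as a term or when some of the samples were left out. With row as a term, which the DM samples alone determine, the GF minus Veh difference was 0.61 (SE 0.64, adjusted p = 0.821) for miR-200c and 0.42 (SE 0.48, adjusted p = 0.833) for miR-141. Without Veh 5 the differences were 2.93 (adjusted p = 0.0117) and 2.65 (0.0128); leaving out GF 2 and 4, Veh 1 and 3, Veh 2 or Veh 4 ended the call for both, with adjusted p of 0.0977, 0.0564, 0.0614 and 0.0637, and so did merging further similar arrays to 7 samples (adjusted p = 0.255). A background correction by normexp gave 1.43 and 1.08, and the mean of all probes gave 1.31 for miR-141; each kept the call.

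DM lay between GF and Veh for both miRNAs, and neither neighbour differed from it past the threshold. miR-200c averaged 6.80 ± 1.15 in DM (n = 3), which was 1.51 above Veh (SE 0.51, 95% interval 0.37 to 2.66, adjusted p = 0.468), while GF was 1.06 above DM (SE 0.55, -0.16 to 2.29, adjusted p = 0.42). miR-141 averaged 5.65 ± 1.17 in DM, 1.11 above Veh (SE 0.47, 0.065 to 2.17, adjusted p = 0.468), and GF was 1.30 above DM (SE 0.50, 0.18 to 2.42, adjusted p = 0.408). In limma no miRNA passed in DM minus Veh (0 of 165, 0.0%; 14 at an unadjusted p under 0.05) or in GF minus DM (0 of 165, 0.0%; 18 unadjusted). The DM samples split by row, and without DM 3 and 5 DM minus Veh was 0.86 and 0.45 (adjusted p = 0.601 and 0.603), and GF minus DM was 1.72 and 1.97 (adjusted p = 0.0559 and 0.0197).

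All 7 arrays of row 2 exceeded all 8 arrays of row 1, whatever their group. miR-200c ran from 204 to 292 in row 2 (GF and DM) and from 28.6 to 80.9 in row 1 (DM and Veh). miR-141 ran from 110 to 149.8 in row 2 and from 12.1 to 38.1 in row 1. The lowest array of row 2 was 2.52 times the highest of row 1 for miR-200c and 2.89 times for miR-141. Row 2 lay wholly above row 1, by any amount, in 6 of 165 miRNAs (3.64%), the others being miR-101a, miR-19b, miR-34a and miR-92a, and wholly below it in 7 (4.24%).

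The rows were also read one at a time. In row 2 the 2 DM arrays had 278 and 276 units of miR-200c, inside the GF range of 204 to 292, and 128 and 126 units of miR-141, inside the GF range of 110 to 149.8. Within row 2, GF minus DM was -0.25 for miR-200c (adjusted p = 0.871) and -0.032 for miR-141 (adjusted p = 0.951), over 3 GF samples and 1 DM sample, too few to show that the groups are alike; row 1 held no GF sample. Within row 1, DM minus Veh was 0.86 for miR-200c (adjusted p = 0.606) and 0.45 for miR-141 (adjusted p = 0.633), over 2 DM and 4 Veh samples. The row term itself, row 2 minus row 1, was 1.97 for miR-200c (SE 0.54, adjusted p = 0.122) and 2.00 for miR-141 (SE 0.40, adjusted p = 0.117). Only DM spans both rows, so over distinct samples this term rests on 1 DM sample in row 2 and 2 DM samples in row 1. Over the 15 arrays the row term was 2.02 (adjusted p = 0.0011) and 2.07 (adjusted p = 0.000212), in a fit where 33 of 165 miRNAs passed for the row (20.0%). That fit counts as separate samples the DM arrays that were averaged as alike. Its p-values and its count therefore treat repeats as replicates.

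Columns of row 1 differed as well. The 4 Veh arrays in columns 1 and 2 had 28.6 to 34.5 units of miR-200c and 12.1 to 17.8 of miR-141. The 4 arrays in columns 3 and 4, DM 1, 2 and 4 and Veh 5, had 60.3 to 80.9 and 27.0 to 38.1. Column 3 of row 1 is the one place that held different groups on the 2 slides: DM 1 had 77.5 units of miR-200c and 37.0 of miR-141, against 80.9 and 38.1 in Veh 5. Whole profiles were compared by place too. Of the 5 close pairs of arrays, each lay within 1 row and 3 at the same place. All 5 were also pairs of 1 group. Every pair within GF or within Veh shares a row by layout, and DM has 4 pairs within a row and 6 across rows. DM 1 and Veh 5, which shared a place, differed by a reduced chi-square of 1.15. The GF pairs joined different columns (GF 1 with 5, GF 2 with 4), and GF 1 and GF 4 at 1 place differed by 1.61. Also at the same place, GF 2 and GF 5 differed by 2.86 and Veh 2 and Veh 4 by 1.43. Whether place shaped the profiles was not tested.

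**Figure D2:**
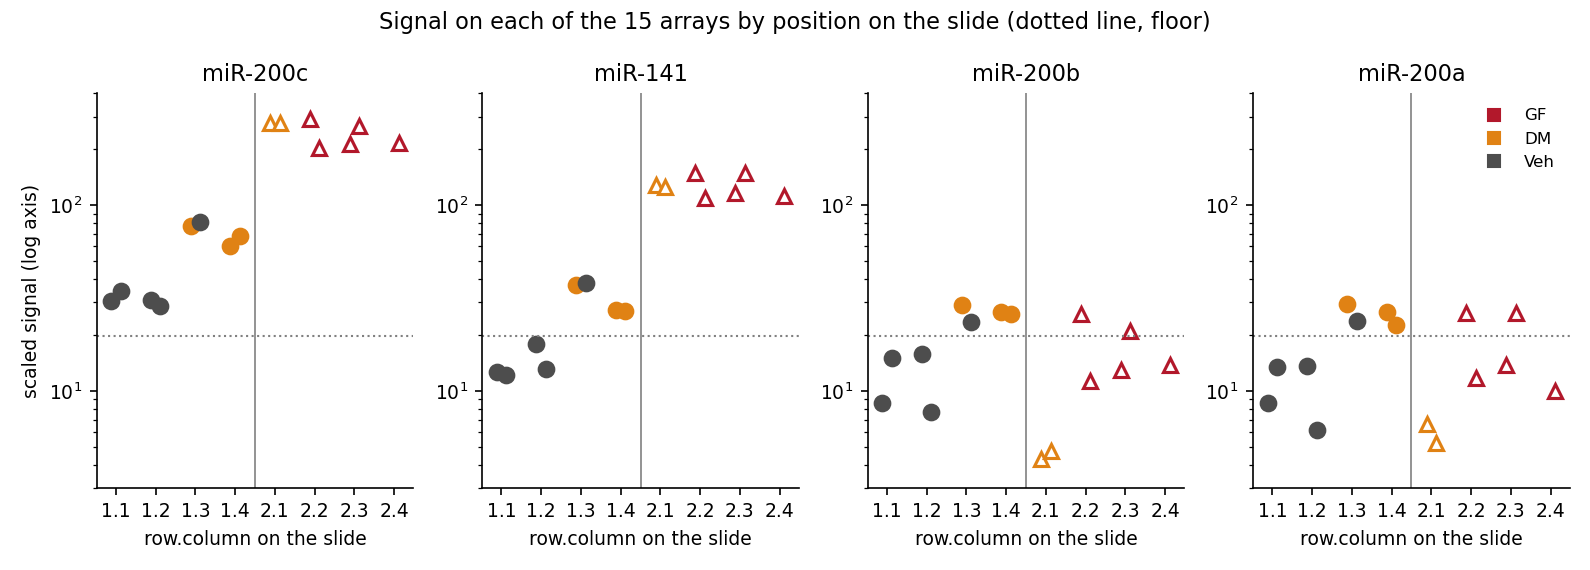
Scaled signal (vertical log axis) on each of the 15 arrays against its row and column on the slide (horizontal axis, slides side by side), coloured by group; the dotted line is the floor of 19.7 units. miR-200c and miR-141 step up between row 1 and row 2 with DM on either side of the step. miR-200b and miR-200a show no step up, with DM 3 and 5 in row 2 among their lowest arrays.

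The 2 probes of miR-200c gave similar differences on the floored scale. GF minus Veh was 2.58 on the brighter probe and 2.59 on the other, which was well above background on 12 of 15 arrays, 2 of them Veh. Its signals on Veh 1, 2 and 4 were 16.0, 19.1 and 18.1, under the floor of 19.7, so its 2.59 depends on the floor. For miR-141 the brighter probe was above background on 12 arrays, and the other on 6, with a GF minus Veh difference of 0.20 on the floored scale. That 0.20 depends on the floor as well. Over distinct samples the scaled signal of this other probe ran from 17.8 to 24.3 in GF, 4.24 to 28.2 in DM and -2.40 to 7.30 in Veh.

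miR-200b and miR-200a, the chromosome 5 members with the same seeds, were near the limit of detection and did not follow miR-200c and miR-141. Scaled signal of miR-200b was 23.5, 13.8 and 12.1 in GF, against 29.0, 26.3 and 4.50 in DM and 23.6, 15.7, 11.8 and 7.69 in Veh. Scaled signal of miR-200a was 26.2, 12.8 and 9.98 in GF, against 29.4, 24.6 and 5.93 in DM and 23.8, 13.6, 11.0 and 6.12 in Veh. The 3 groups overlapped for both. The lowest values of both were in DM 3 and 5, the DM sample with the highest miR-200c and miR-141.

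No contrast of these 2 members passed the threshold. miR-200b differed by 0.016 (SE 0.14, adjusted p = 0.96) between GF and Veh, 0.26 (SE 0.14, adjusted p = 0.546) between DM and Veh and -0.24 (SE 0.15, adjusted p = 0.489) between GF and DM. miR-200a differed by 0.070 (SE 0.15, adjusted p = 0.824), 0.23 (SE 0.15, adjusted p = 0.586) and -0.16 (SE 0.16, adjusted p = 0.705). On this floored scale 2 of 3 GF, 1 of 3 DM and 3 of 4 Veh samples sat at the floor for each, so a difference below it would not be seen. miR-200b was well above background on 2 GF, 3 DM and 1 Veh arrays, and miR-200a on 3 GF, 3 DM and 1 Veh arrays. In the 15-array fit with the row as a term, miR-200b was 0.41 higher in DM (adjusted p = 0.0297; 5 of 165 called, 3.03%) and 0.51 higher in GF (adjusted p = 0.041; 15 of 165 called, 9.09%) than in Veh. The same differences over distinct samples were 0.42 (adjusted p = 0.337) and 0.50 (adjusted p = 0.383). In the 15-array fit the row term, row 2 minus row 1, was -0.46 for miR-200b (adjusted p = 0.0125) and -0.40 for miR-200a (adjusted p = 0.0784). That fit counts the averaged arrays as separate samples. Over distinct samples the row term was -0.48 (adjusted p = 0.14) and -0.45 (adjusted p = 0.327).

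miR-429, the remaining member of the chromosome 5 cluster, was not well above background on any of the 15 arrays with either probe. Its brighter probe reached at most 12.4 units in GF, 11.4 in DM and 8.63 in Veh. It was not tested and no fold is given.

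**Figure D3:**
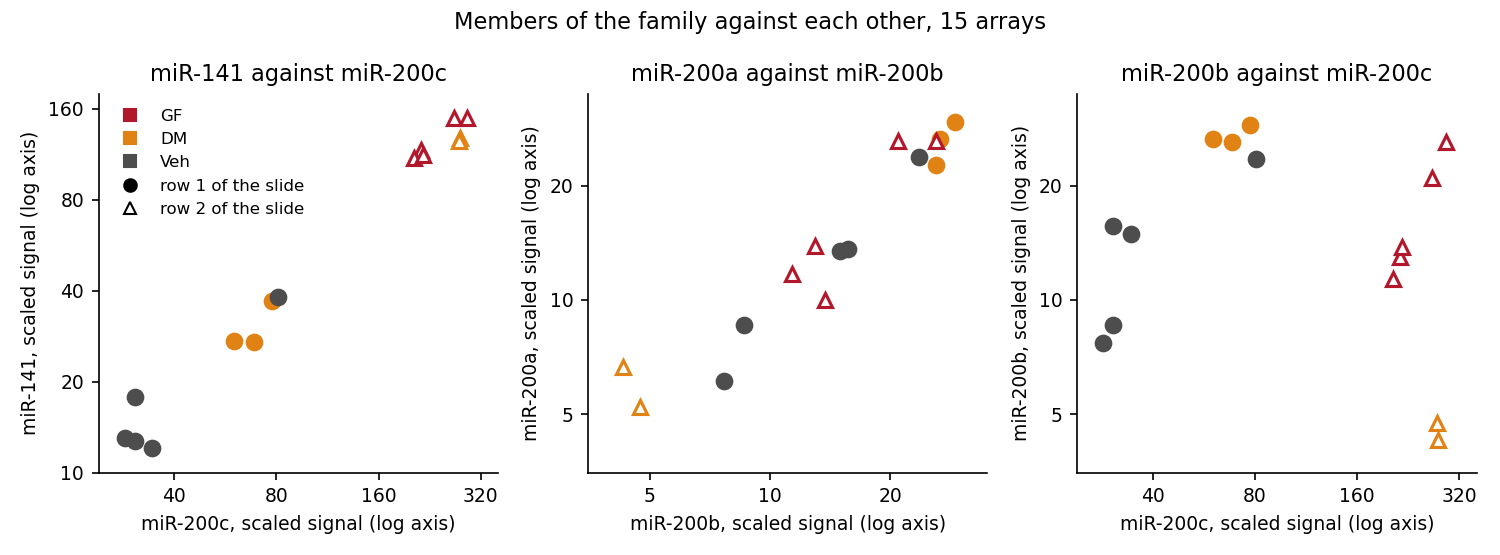
Scaled signal of one member against another on the 15 arrays (log axes), coloured by group, with filled circles for row 1 and open triangles for row 2 of the slide. miR-141 moves with miR-200c and miR-200a with miR-200b, the pairs of neighbouring genes, while over all 15 arrays the same-seed pair miR-200b and miR-200c does not line up. miR-200b and miR-200a were under the floor of 19.7 units on most arrays.

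Across all samples, members of 1 cluster varied together more closely than same-seed members. As a description over the 10 distinct samples, with a low floor of 1 so that dim values kept their order, Pearson's r was 0.99 between miR-200c and miR-141 and 0.96 between miR-200b and miR-200a. It was -0.09 between miR-200c and miR-200b and 0.06 between miR-141 and miR-200a. The samples fall into clusters by row, and all values share the array's scaling. Over the 6 samples of row 1 alone, the same-seed values were 0.90 and 0.92, and the same 3 samples (Veh 5, DM 1, and DM 2 and 4) were the highest for all 4 members.

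The change between same-seed members was tested within arrays, as the log2 signal of one minus that of the other. A factor that scales a whole array cancels only where neither signal is at the floor, and a row effect that differs between the members does not cancel. The size of such a difference in a group depends on the probes, and its change between groups is what can be read. miR-200c minus miR-200b averaged 3.48 ± 0.09 in GF (n = 3) and 0.92 ± 0.58 in Veh (n = 4), a change of 2.56. miR-141 minus miR-200a averaged 2.51 ± 0.0056 in GF and 0.17 ± 0.34 in Veh, a change of 2.34. Its small GF spread and its Veh values, which are 0 where both miRNAs sit at the floor, are set by the floor: with a floor of 1 it averaged 3.05 ± 0.50 in GF and 0.59 ± 0.39 in Veh, and with the mean of all probes the change was 1.27. GF, all in row 2, and Veh, all in row 1, did not overlap in either pair; the two-sided exact permutation p was 0.0571 for each, the smallest that 3 against 4 samples can give, and 0.171 adjusted over 6 tests. DM averaged 2.17 ± 1.42 and 1.05 ± 1.41 (n = 3) and overlapped with Veh and GF (exact permutation p of 0.171 to 0.4, adjusted 0.343 to 0.4; the smallest possible for 3 against 3 is 0.1). DM split by row here too: DM 3 and 5 in row 2 had 3.81 and 2.68, against 1.29 and 1.42 for the first pair and 0.15 and 0.33 for the second in the DM samples of row 1.

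**Figure D4:**
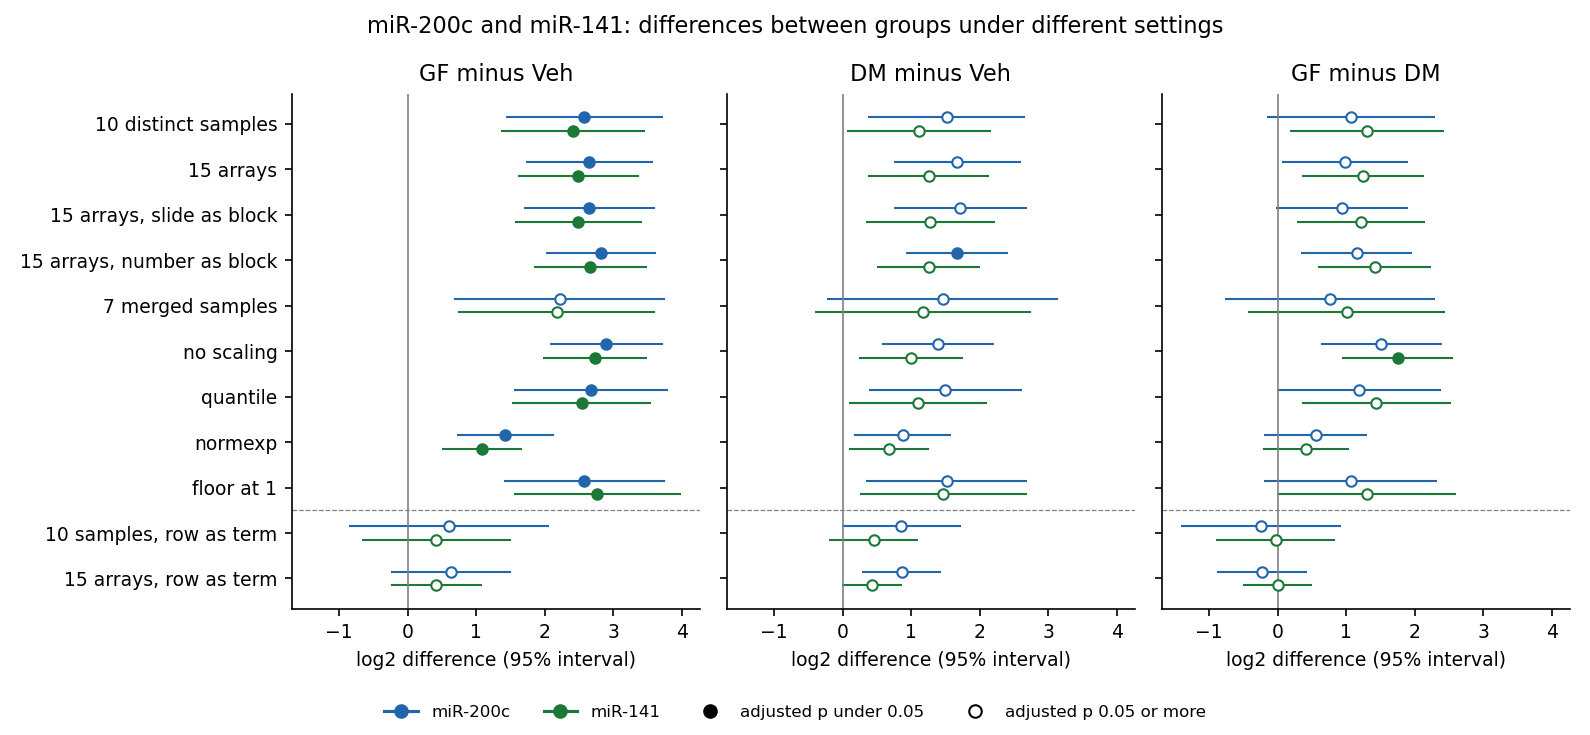
Log2 difference (horizontal axis, with 95% interval) of miR-200c and miR-141 between groups under different ways of processing the arrays (vertical axis); filled points have an adjusted p under 0.05. Differences from Veh are positive throughout, and the estimates of GF minus Veh with the row of the slide as a term, below the dashed line, are 0.61 and 0.42 over distinct samples against 2.58 and 2.41 without it.

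The labelled tissue was checked against marker miRNAs. All 5 cardiomyocyte miRNAs (miR-1, miR-133a, miR-133b, miR-208 and miR-499) were above background on all 15 arrays. Among them miR-208, which sits in an intron of a myosin gene, fell by 1.34 in GF against Veh (SE 0.28, adjusted p = 0.0194), and the other 4 did not pass; with the row as a term its difference was -0.24 (adjusted p = 0.898).

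Most other epithelial miRNAs were not detected. Of 10 epithelial miRNAs, 7 were not above background on any array (miR-203, miR-205, miR-183, miR-182, miR-96, miR-375 and miR-215). The summed signal of the 10 ran from 128 to 243 in GF, 215 to 276 in DM and 143 to 315 in Veh. The 3 that were above background were miR-192, miR-194 and miR-31, and none passed in any contrast. miR-192, known from intestine, liver and kidney, averaged 6.66 ± 0.41 in GF and 6.67 ± 0.31 in Veh on the log2 scale. miR-194, made with miR-192 and miR-215 from shared transcripts, averaged 4.87 in GF and 4.92 in Veh. miR-31 averaged 5.53 in GF and 5.04 in Veh, with an adjusted p of 0.691. Liver-specific miR-122 was not above background on any array.

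Blood and vessel miRNAs gave 1 call. Of 4 leukocyte miRNAs, miR-142-5p fell by 0.64 in GF against Veh (SE 0.16, adjusted p = 0.0367; -0.038 with the row as a term), and miR-142-3p (-0.48, adjusted p = 0.0887), miR-223 (0.51, adjusted p = 0.0611) and miR-150 (-0.0097, adjusted p = 0.966) did not pass. None of 2 red cell, 2 endothelial, 2 smooth muscle and 3 fibroblast-rich miRNAs passed in any contrast over distinct samples.

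Of 10 miRNAs linked to epithelial-mesenchymal transition outside the family, 9 were on the array and 7 were tested, and 0 of 7 passed in any contrast over distinct samples. Their median GF minus Veh difference was -0.32, against -0.055 for all tested miRNAs. Over the 15 arrays 2 of the 7 were higher and 2 lower in GF than in Veh, beside 60 of 165 called (36.4%). miR-34a, a p53 target, averaged 11.15 ± 0.06 in GF and 10.47 ± 0.36 in Veh on the log2 scale (difference 0.68, adjusted p = 0.0745), with 11.44 in DM 3 and 5.

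The tested miRNAs most like miR-200c over the 10 distinct samples, by Pearson's r among 161 non-members, were miR-101a (0.96), miR-34a (0.95), miR-92a (0.91), miR-26b (0.90) and miR-26a (0.89). For miR-141 they were miR-101a (0.94), miR-34a (0.91), miR-92a (0.91), miR-7a* (0.87) and miR-26b (0.87). Their changes were far smaller than those of miR-200c and miR-141: GF minus Veh was 0.43 for miR-101a (adjusted p = 0.0194), 0.56 for miR-92a (adjusted p = 0.0551), 0.26 for miR-26b (adjusted p = 0.0666), 0.13 for miR-26a (adjusted p = 0.19) and 0.075 for miR-7a* (adjusted p = 0.488). The row moved with several of them too. With the row as a term the difference was 0.26 for miR-101a (adjusted p = 0.587), 0.0084 for miR-34a and 0.0079 for miR-92a (adjusted p = 0.997 each). For miR-26b and miR-26a it changed less, to 0.20 and 0.10, and for miR-7a* it was -0.077.

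The authors' deposited table of an uncorrected analysis of variance over the 3 groups, with unequal variances, listed 35 of 149 miRNAs, of which miR-200c (p = 0.000404) and miR-141 (p = 0.000705) ranked 2 and 3 by p-value. The authors' deposited tables of pairwise differences listed 30 miRNAs for GF and Veh, 5 for DM and Veh and 20 for DM and GF, and these 2 members were the miRNAs present in every list. In the authors' deposited table the log2 fold of GF over Veh was 3.04 for miR-200c and 3.46 for miR-141, and that of DM over Veh was 1.67 and 1.84. These p-values take the 15 arrays as independent and have no term for the row. miR-200b, miR-200a and miR-429 were not among the 149 that passed the authors' filter on low raw values. The total signal summed over their probes reached 25 units, the level named in that filter, on 0, 2 and 0 of 15 arrays.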

How the data were processed

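Scanner images were quantified with Agilent Feature Extraction, version 9.5.3.1, per the file headers and the submitters' processing notes. The deposited array files hold background-subtracted signal intensity per spot with detection flags, not scaled between arrays. The authors' deposited table holds log2 values of 149 miRNAs, recomputed here to within 2.05e-06 as log2 total gene signal minus the mean of the Veh arrays. The authors' deposited comparison tables hold an unadjusted p-value and log2 fold changes.

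Flagged spots were dropped, spots were averaged per probe, and arrays were brought to a common 75th percentile, taken over the 254 probes that were well above background (in more than 0.5 of their spots) on all arrays. Signals under 19.7 were set to that floor before log2 was taken. The brightest probe stood for a miRNA. To be tested, a miRNA had to be well above background on 3 or more of the 5 arrays of some group (165 of 350).

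The 105 pairs of arrays were compared by a reduced chi-square (156 miRNAs, errors as stated by the software); 5 pairs, from 0.243 to 0.63, were under 1 and were averaged. The groups were fitted with limma 3.58.1 (R 4.3.3), two-sided, Benjamini-Hochberg over all 165 tested. The fit was tested on simulated data. Same-seed pairs were compared with exact permutation tests (scipy 1.17.1). The planned normexp correction used the median spot signal in place of the mean signal, which the array files used here do not hold. The number of arrays limits the precision, and p-values measure the spread between these samples, which may be technical.

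The members, lists and tests were chosen with earlier results of these data known, and the place on the slide was added as an alternative after the data were seen. The miRNAs named are the 5 members, the 5 tested miRNAs most correlated with miR-200c and the 5 with miR-141, list members past the threshold or, for epithelial markers, above background. The other list members, miR-19b and the miRNAs given as not detected were chosen after their values were seen.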

Additional observations from a re-analysis of the deposited data

Results flagged for a closer look

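Veh 5 stood apart from the other 3 Veh samples (n = 4) for miR-200c: the gap to its nearest neighbour took up more of the group's range than Dixon's 95% limit allows. Its log2 signal of miR-200c was 6.34, against at most 5.02 in the others. Its within-array difference of miR-200c minus miR-200b, 1.78, was flagged in the same way, with miR-200b at the floor in the other 3 samples. For miR-141, miR-200b and miR-200a the other Veh samples were all set to the floor, so the gap was read on the signals above a floor of 1, where it took up 0.678, 0.363 and 0.41 of the range and stayed under the limit. Chance flags about 1 in 20 groups, and both flagged values come from 1 sample and share its miR-200c signal.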

How the results depend on the processing

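The differences of miR-200c and miR-141 between GF and Veh kept their sign under every alternative run, and of those that give an adjusted p (the within-slide values do not), it was under 0.05 in all but the exceptions below and the left-out samples named above. Counts of called miRNAs are given in the order GF minus Veh, DM minus Veh, GF minus DM, against 13, 0 and 0. They were 60, 3 and 6 with 15 arrays as independent samples, 57, 3 and 5 with slide as a block, 15, 5 and 16 with 15 arrays and the row as a term, and 0 in each with the row as a term over distinct samples. GF minus Veh called 2 when scaled to control spots and with the authors' values, 21 with the mean of all probes, and 0 when arrays within the simulated range of 0.677 to 1.37 were merged to 7 samples. GF minus DM called 1 without scaling and 1 with normexp. Scaling changed the split of the GF minus Veh calls: 5 higher and 8 lower here, 15 and 1 with the percentile over all probes, 16 and 2 without scaling, 13 and 5 after quantile normalization, 6 and 9 after normexp. Without scaling the median miRNA moved by 0.25 in GF minus Veh and 0.35 in GF minus DM, and with control spots by 0.17 in DM minus Veh and -0.21 in GF minus DM. Leaving out 1 distinct sample gave 0 to 28, 0 to 2 and 0 to 6 calls.

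Members called in GF minus Veh were 2, and 0 with merging or the row term, 1 with 15 arrays and the row, and 0 to 2 on leaving out a sample. In DM minus Veh 1 was called with the replicate block and 1 with 15 arrays and the row; in GF minus DM 1 was called without scaling and 0 to 1 on leaving out a sample. Merging gave 2.22 for miR-200c and 2.18 for miR-141 (adjusted p = 0.255), and 15 arrays with the row 0.63 (0.352) and 0.42 (0.418), beside the row term's 0.61 and 0.42. Leaving out a sample gave 2.43 to 2.93 and 2.28 to 2.65. The cause of the lost calls was not tested. Merging and leaving out a sample lowered the number of samples. Adding the row term kept the 10 samples, and the SE went from 0.51 to 0.64 for miR-200c and from 0.47 to 0.48 for miR-141.

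Whether replicate numbers pair the arrays was not tested. Deviations correlated over 0.1 in 6 of 13 same-numbered pairs across groups (median 0.060) and in 22 of 62 other pairs (median -0.033). For 7 of 15 arrays the best correlated array of another group had the same number. With the replicate block, 15 arrays gave 50, 4 and 1 calls, 2.82 and 2.67 for the members in GF minus Veh, and 1.67 for miR-200c in DM minus Veh (adjusted p = 0.0329).

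Reversals concerned differences that were not called. GF minus DM with the row as a term, over distinct samples, 15 arrays and row 2 alone, was -0.25, -0.23 and -0.25 for miR-200c, -0.032, -0.0035 and -0.032 for miR-141, 0.081, 0.097 and 0.081 for miR-200b, and 0.14, 0.16 and 0.14 for miR-200a. It was 0.061 with a floor of 1 and 0.23 with total gene signal for miR-200b, and 0.18 with total gene signal and 0.037 within slide 2 for miR-200a. GF minus Veh for miR-200b was -0.20 with normexp, -0.048 merged, -0.057 within slide 2 and -0.064 to 0.081 on leaving out a sample, and for miR-200a -0.17 with normexp and -0.067 to 0.14. With 15 arrays the changes of the same-seed differences between GF and Veh were 2.61 and 2.38 (exact permutation, adjusted p = 0.0238 each). Signals near the floor limit miR-200b, miR-200a and miR-429.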
